A study of Mus musculus with 24 samples.

Results

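The 10 genes described here encode the FOS family (Fos, Fosb, Fosl1 and Fosl2), the JUN family (Jun, Junb and Jund), the stress-induced factor ATF3, the zinc finger factor EGR1 and the stress response protein IER3. They were chosen by name, and all 10 were found, each in a single row, among the 18368 genes of the expression table. IER3 is an immediate early protein but not a transcription factor, so 9 of the 10 genes encode transcription factors. RNA was sequenced from 24 skin samples of 12 CD1 mice, an outbred stock, at 7 weeks of age and, by the labels, with the hair cycle brought into its resting phase. Each mouse carried 2 mm punch wounds of the full skin thickness at only 1 of 3 sites (abdomen, back or cheek, 4 mice each) and gave a wound sample taken at day 3 and a sample of unwounded skin from beside it. The 6 groups are therefore unwounded abdomen, back and cheek and wounded abdomen, back and cheek, with 4 samples each, and neither a transgene nor a drug treatment separated them. All mice had been anaesthetised, given an analgesic and shaved, so the unwounded samples are skin of wounded mice, and skin of mice without a wound was not analysed here. Cheek mice had a single wound, whereas abdomen and back mice had a pair of wounds, so the number of wounds cannot be told apart from the site. The samples were whole tissue, in which fewer cells of a type and less RNA per cell cannot be told apart.

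AP-1 is a transcription factor complex in which proteins of the FOS and JUN families, joined in some pairs by ATF proteins such as ATF3, dimerise through a leucine zipper and bind a short palindromic DNA element. Fos, Fosb, Junb, Egr1, Atf3 and Ier3 are classical immediate early genes, whose transcription starts within minutes of a stimulus without new protein synthesis and soon declines, driven by MAP kinases acting on serum response factor and its ETS partners at their promoters. In skin, AP-1 proteins control keratinocyte proliferation and differentiation, matrix protease genes and inflammatory genes, and their transcripts are known to rise at wound margins.

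The genes are short. On GRCm38.p6 their median length from first to last transcribed base was 3568 bases, against 22376 bases over the tested genes with a RefSeq position. All 10 were shorter than that median, and 6 were under 5000 bases, a length that 12.8% of tested genes fell below. The JUN family genes each have 1 exon (Jun, chr4:95049036-95052222; Junb, chr8:84976909-84978748; Jund, chr8:70697739-70700616). The FOS family genes have 4 exons each (Fos, chr12:85473890-85477274; Fosb, chr7:19302696-19310118; Fosl1, chr19:5447698-5455938; Fosl2, chr5:32136472-32157840), as does Atf3 (chr1:191170296-191183333), and Ier3 has 2 (chr17:35821713-35822911). RefSeq windows of 300 bases, 250 before and 50 after the start site, were at hand for 8 of the 10 genes, not for Fosl1 and Egr1. They were searched on both strands for the AP-1 element TGANTCA, the cyclic AMP element TGACGTCA and its core TGACGT, which lies within it, the ATF-like element TGACATCA, the TATA element TATAAA and the CArG box of serum response factor. The 140 bases before the start sites of Fos, Jun and Atf3 are shown because these genes respond to wounding and each holds 1 or more of these motifs, which stand in capitals.
Fos, chr12:85473750-85473889, plus strand: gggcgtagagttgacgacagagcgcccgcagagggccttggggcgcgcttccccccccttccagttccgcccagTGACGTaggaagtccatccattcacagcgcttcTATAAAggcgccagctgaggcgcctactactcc
Jun, chr4:95052223-95052362, minus strand: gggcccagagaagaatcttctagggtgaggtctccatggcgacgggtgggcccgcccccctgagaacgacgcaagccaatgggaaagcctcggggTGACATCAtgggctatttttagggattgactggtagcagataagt
Atf3, chr1:191183334-191183473, minus strand: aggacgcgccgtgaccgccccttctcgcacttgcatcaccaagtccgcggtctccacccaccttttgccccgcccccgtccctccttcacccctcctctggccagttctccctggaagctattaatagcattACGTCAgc

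TGACGT was found in the windows of Fos and Atf3, on the opposite strand in Atf3 where it reads ACGTCA, and in 7.51% of all 32851 windows. TGACATCA was found in the window of Jun and in 3.62% of all windows. TATAAA was found in the window of Fos, at bases -33 to -28, in that of Junb, at bases 1 to 6, and in 13.6% of all windows. TGANTCA, TGACGTCA and the CArG box were in none of the 8 windows, and in 7.81%, 1.79% and 1.63% of all windows. Bases farther from the start site were not searched, so elements there could not be found. A match describes letters only.

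Expression was measured in FPKM, fragments of a transcript scaled by its length and by the mapped total of the library, which sets levels of genes of different length on the same scale. FPKM values summed to between 490830 and 608888 per library, and between 15781 and 16577 genes were above 0. The number of fragments behind a value is not known. The smallest steps between low values put relative depth roughly between 0.944 and 1.07 of the typical library. Markers of skin were present in every group, with summed FPKM between 3624 and 10880 for 5 basal keratinocyte genes and between 5936 and 23060 for 6 fibroblast genes. The unwounded cheek library of mouse 4 stood apart in 5 growing hair follicle genes, at 4016 FPKM in sum against 1.47 to 69.4 in every other library, which goes against a resting hair cycle in that sample. The 6 skeletal muscle genes summed to 444 and 2367 FPKM in unwounded abdomen of mice 2 and 3 and to 9924 to 20090 in every other unwounded library. The part of these markers in the results below was not tested, and cheek and abdomen results are given also without those mice where that ends a call.

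Wounds were first compared with the unwounded skin of the same mouse at each site, which asks which of the 10 genes respond to injury at day 3. Transcripts of the FOS family genes Fos and Fosl1, of Jun and Junb, of Atf3 and of Ier3 rose in wounds at all 3 sites. Egr1 and Fosl2 rose in back and cheek wounds and Fosb in back wounds, while Jund did not pass the test at any site. Changes are given on the log2 scale of FPKM with 0.5 added, with the limma standard error and the p value adjusted over all 14423 tested genes, and a gene was called at an adjusted p under 0.05. Abdomen wounds had 6 of the 10 genes called, back wounds 9 and cheek wounds 8, all higher in the wound. Over all tested genes, the shares called higher were 16.9%, 28.0% and 19.7% for the same sites. The 10 genes had a median change of 0.86 for abdomen, 1.79 for back and 0.91 for cheek, beside medians over all tested genes of -0.01, 0.07 and 0.01. At the stricter adjusted p of 0.001, the counts were 2, 8 and 3, where 4.96%, 14.4% and 8.69% of all tested genes were called in either direction. Averaged over the sites, 8 of the 10 were called higher, against 33.3% of all tested genes.

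**Figure D1:**
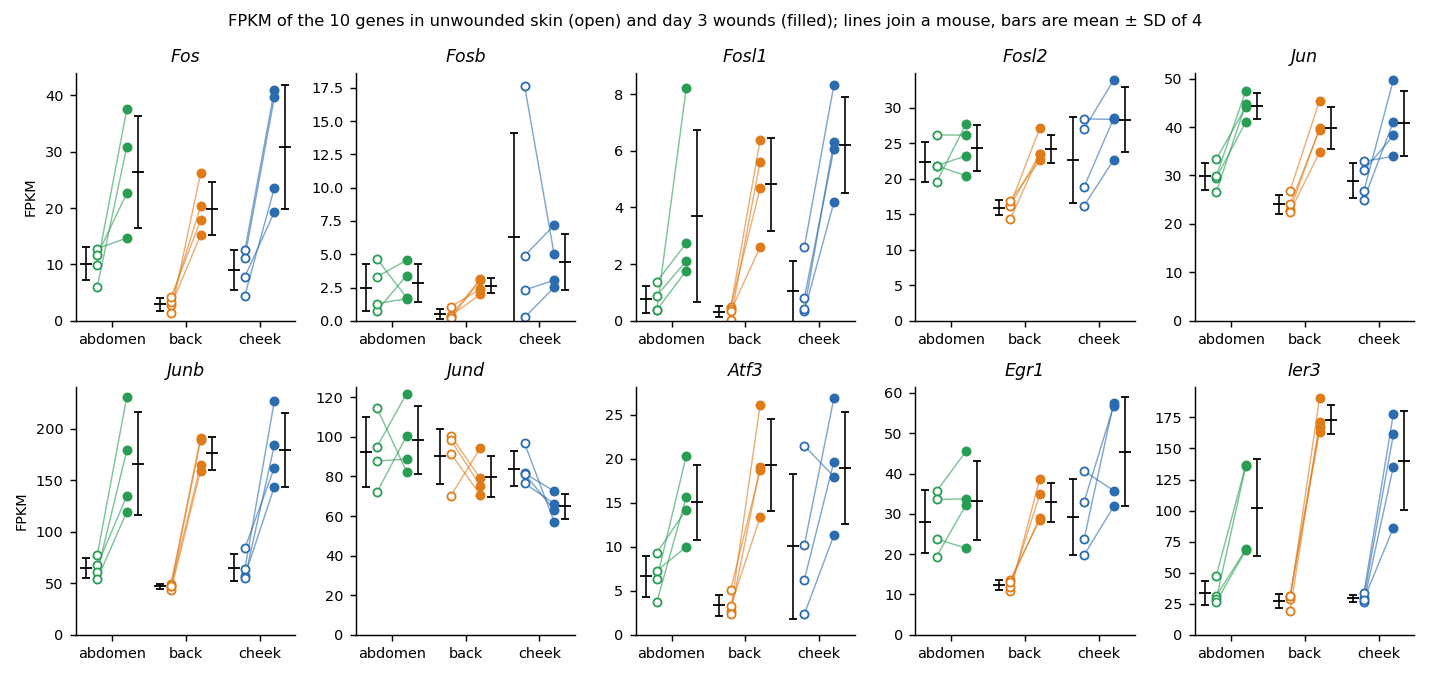
FPKM (vertical axes, linear from 0) of each of the 10 genes by site, with open circles for unwounded skin, filled circles for day 3 wounds, lines joining the samples of a mouse and black bars for the mean ± SD of 4 samples, which are cut at 0 where the SD exceeds the mean. Fos, Fosl1, Jun, Junb and Ier3 were higher in the wound in 12 of 12 mice, and Jund in 4 of 12.

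Fos, the founding member of the family, is almost silent in resting cells. In unwounded abdomen it stood at 9.92, 12.8, 6.07 and 11.7 FPKM in mice 1 to 4, and in their wounds at 37.5, 14.7, 30.9 and 22.6 FPKM. In unwounded back it stood at 1.40, 2.72, 3.40 and 4.16 FPKM, and in the wounds at 26.2, 15.2, 20.3 and 17.8 FPKM. In unwounded cheek it stood at 7.85, 12.5, 11.2 and 4.49 FPKM, and in the wounds at 19.3, 40.9, 39.7 and 23.6 FPKM. Fos was higher in the wound in all 12 mice, and unwounded and wounded samples did not overlap at any site, with unwounded back the lowest group. The rise was 1.31 ± 0.35 in abdomen (2.48-fold, limma adjusted p = 0.0148), 2.62 ± 0.35 in back (6.16-fold, adjusted p = 0.000157) and 1.74 ± 0.35 in cheek (3.35-fold, adjusted p = 0.00281). The abdomen call was lost without mouse 1 (adjusted p = 0.0632), without mouse 3 (0.0702) and when abdomen was fitted on its own 8 libraries (0.0721).

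Fosl1 encodes FRA-1, a FOS protein without a strong activation domain that is associated with migrating epithelial cells. It had the lowest mean FPKM of the 10 genes in unwounded skin of each site, with 0.38, 1.38, 0.89 and 0.38 FPKM in abdomen and 0.49, 0.04, 0.43 and 0.33 FPKM in back. Unwounded cheek held 0.34, 0.81, 2.60 and 0.40 FPKM. In wounds Fosl1 reached 8.22, 2.74, 2.11 and 1.77 FPKM in abdomen, 4.67, 5.62, 6.37 and 2.60 FPKM in back and 4.18, 6.06, 8.32 and 6.32 FPKM in cheek. Wounded and unwounded samples did not overlap at any site. Its rises were 1.59 ± 0.38 in abdomen (adjusted p = 0.00883), 2.67 ± 0.38 in back (adjusted p = 0.000218) and 2.31 ± 0.38 in cheek (adjusted p = 0.000834). At such levels the added 0.5 FPKM lowers the estimate, and the ratio of mean FPKM was 4.90, 14.9 and 5.99. When abdomen was fitted on its own libraries the adjusted p was 0.0624.

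Fosb and Fosl2 moved less. Fosb, a close relative of Fos, was at most 7.17 FPKM in all libraries but that of unwounded cheek of mouse 3, which held 17.6 FPKM. In back it rose from 0.38, 0.37, 1.06 and 0.21 FPKM to 3.13, 2.00, 2.39 and 3.05 FPKM, a change of 1.69 ± 0.53 (adjusted p = 0.0238) that was lost without mouse 1 (0.0758), mouse 2 (0.0608) or mouse 4 (0.0895). In abdomen and cheek, wounded and unwounded samples overlapped, 3 of 4 mice at each site had the higher value in the wound, and the changes were 0.28 ± 0.53 at either site (adjusted p = 0.722 and 0.712). The mean FPKM of Fosb in cheek was lower in wounds, at 4.43 ± 2.115 against 6.27 ± 7.81 in unwounded skin (SD, n = 4). Fosl2, which encodes FRA-2, was the most abundant of the family in unwounded skin, with means of 22.3 ± 2.78 in abdomen, 15.9 ± 1.11 in back and 22.6 ± 6.01 FPKM in cheek (SD, n = 4). It rose in back from 14.3 to 16.9 FPKM before to 22.6 to 27.1 FPKM after wounding, by 0.58 ± 0.11 (adjusted p = 0.000941). In cheek the rise of 0.34 ± 0.11 (adjusted p = 0.0264) was lost without mouse 1 (0.102), 2 (0.137) or 3 (0.0676). That call was also lost without mouse terms (0.08555) and with cheek fitted on its own libraries (0.0639). In abdomen Fosl2 changed by 0.12 ± 0.11, with a 95% interval from -0.11 to 0.36 (adjusted p = 0.410).

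Among the JUN family, Junb showed the largest change, Jun a smaller one and Jund none that passed the test. Junb, whose product can oppose JUN at some promoters, stood at 77.4, 67.3, 60.7 and 53.9 FPKM in unwounded abdomen and at 231, 135, 179 and 119 FPKM in the wounds. In back it went from 49.8, 43.6, 47.0 and 47.4 FPKM to 191, 159, 189 and 165 FPKM. In cheek it went from 57.3, 54.7, 63.9 and 84.0 FPKM to 144, 184, 227 and 162 FPKM. Junb was at least 1.93-fold higher in the wound of every mouse, and no groups overlapped. The log2 changes were 1.32 ± 0.13, 1.89 ± 0.13 and 1.46 ± 0.13, with adjusted p values of 3.31e-05, 8.59e-07 and 6.77e-06.

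Jun, the partner of FOS proteins in the classical AP-1 dimer, rose from 26.6 to 33.4 FPKM in unwounded abdomen to 41.1 to 47.5 FPKM in the wounds. In back it rose from 22.5 to 26.9 FPKM to 34.8 to 45.5 FPKM, and in cheek from 25.0 to 32.9 FPKM to 34.0 to 49.7 FPKM. The changes of 0.57 ± 0.11, 0.71 ± 0.11 and 0.48 ± 0.11 were called at each site (adjusted p = 0.00295, 0.000342 and 0.00595), the last at 0.0553 with cheek fitted on its own libraries. Jund, a widely expressed family member that often restrains growth, had the highest mean FPKM of the 10 genes in unwounded skin of each site. In cheek all 4 mice had less in the wound, with 81.5, 76.5, 96.7 and 81.3 FPKM before and 72.6, 66.3, 57.2 and 63.1 FPKM after, and the groups did not overlap, as in the lower direction in 15.0% of tested genes. The change of -0.37 ± 0.16 had an adjusted p of 0.0950, and of 0.0442 after quantile normalization. In abdomen the change was 0.09 ± 0.16 and in back -0.17 ± 0.16, with 95% intervals from -0.26 to 0.45 and from -0.53 to 0.19.

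**Figure D2:**
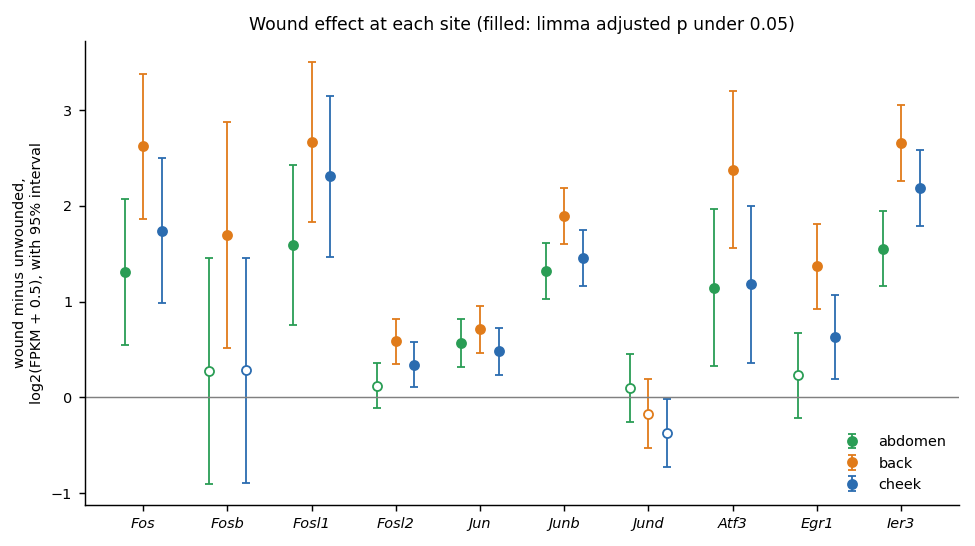
Wound minus unwounded difference of log2(FPKM + 0.5) (vertical axis) for each of the 10 genes at abdomen, back and cheek, with 95% intervals from limma and filled circles for an adjusted p under 0.05. The back estimate was the highest of the 3 for every gene but Jund.

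Atf3, a bZIP factor induced by many stresses that can repress or activate with JUN proteins, rose in abdomen from 9.32, 7.29, 3.68 and 6.32 FPKM to 14.2, 10, 15.7 and 20.4 FPKM. In back it rose from 2.68, 3.25, 5.10 and 2.35 FPKM to 26.1, 13.3, 18.7 and 19.0 FPKM. In cheek it stood at 6.27, 10.2, 21.5 and 2.35 FPKM before and 19.7, 26.9, 18 and 11.3 FPKM after, so mouse 3, whose unwounded library was also the highest in Fosb, did not rise and the groups overlapped. The changes were 1.15 ± 0.37 (adjusted p = 0.0360), 2.38 ± 0.37 (0.000498) and 1.18 ± 0.37 (0.0291). The abdomen call was lost without mouse 3 (0.147) or 4 (0.130) and without mouse terms (0.0579), and the cheek call without mouse 1 (0.103), 2 (0.101) or 4 (0.121) and with cheek fitted on its own libraries (0.0512).

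Egr1, an early response factor that binds GC-rich promoters, rose in back from 10.8, 13.7, 11.9 and 13.0 FPKM to 38.8, 28.6, 34.9 and 29.0 FPKM, by 1.37 ± 0.20 (adjusted p = 0.000238). In cheek it went from 19.8, 23.8, 33.0 and 40.6 FPKM to 31.8, 57.4, 56.8 and 35.8 FPKM, with 3 of 4 mice higher in the wound and overlapping groups. The cheek change of 0.63 ± 0.20 had an adjusted p of 0.0297, which became 0.0565 without mouse terms, 0.0760 with cheek fitted on its own libraries and 0.0827, 0.162 and 0.101 without mice 1, 2 and 3. In abdomen it stood at 35.6, 23.8, 19.4 and 33.6 FPKM before and 45.5, 21.5, 32.3 and 33.7 FPKM after, a change of 0.23 ± 0.20 with a 95% interval from -0.21 to 0.68 (adjusted p = 0.403). Ier3, a stress response gene that modulates survival and ERK signalling, was between 19.3 and 47.5 FPKM in every unwounded library and between 67.9 and 191 FPKM in every wound. Its changes were 1.55 ± 0.18 in abdomen, 2.66 ± 0.18 in back and 2.19 ± 0.18 in cheek, with adjusted p values of 9.54e-05, 8.51e-07 and 3.65e-06. Ier3 and Junb kept their calls at each site under every alternative that was run.

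Unwounded and wounded samples did not overlap, with the wound higher, for 6 of the 10 genes at the abdomen, 9 at the back and 5 at the cheek. Over all tested genes the groups were so separated in 13.4%, 25.0% and 16.7%. Without cheek mouse 4, the mouse whose unwounded library held hair follicle transcripts, 7 of the 10 genes were called in cheek, Atf3 being the one lost. Without cheek mouse 1 or mouse 2 the count was 5, as Fosl2, Atf3 and Egr1 were each lost.

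The make-up of both families differed between wounds and unwounded skin, as a description without a test. Fosl2 gave 63.2% ± 7.27 of the summed FPKM of the FOS family in unwounded abdomen, 81.2% ± 4.91 in back and 60.6% ± 17.2 in cheek, and 44.0% ± 9.73, 47.2% ± 3.16 and 41.5% ± 5.85 in the wounds (SD, n = 4). The share of Fosl2 was lower in the wound in all 12 mice. The share of Fos was 28.04% ± 5.37, 14.6% ± 4.995 and 23.9% ± 9.31 in unwounded skin and 45.3% ± 8.72, 38.3% ± 4.12 and 43.3% ± 5.18 in wounds, and was higher in the wound in 12 of 12 mice. Fosl1 went from mean shares of 2.08%, 1.61% and 2.28% to 5.98% ± 3.24 in abdomen, 9.39% ± 3.27 in back and 8.95% ± 1.33 in cheek, also higher in 12 of 12 mice. The summed FPKM of the family was 35.7 ± 6.61, 19.7 ± 1.98 and 38.9 ± 13.7 in unwounded abdomen, back and cheek and 57.4 ± 15.2, 51.5 ± 7.08 and 69.9 ± 17.9 in the wounds.

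In the JUN family Jund held 49.2% ± 2.74, 55.7% ± 4.77 and 47.4% ± 4.35 of the FPKM in unwounded abdomen, back and cheek, and Junb held 34.7% ± 1.33, 29.3% ± 3.13 and 36.3% ± 4.09. In wounds Junb was the largest part, with 53.0% ± 8.36, 59.5% ± 3.86 and 62.6% ± 6.0, and Jund held 32.4% ± 6.41, 27.0% ± 3.78 and 23.1% ± 4.37. These shifts in share were seen in 12 of 12 mice. The share of Jun stayed within 11.6% to 19.1% in all libraries. Shares add up to a fixed total, so they do not give the direction of a level. The level of Fosl2 was higher in the wound in 9 of 12 mice and that of Jund in 4 of 12.

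**Figure D3:**
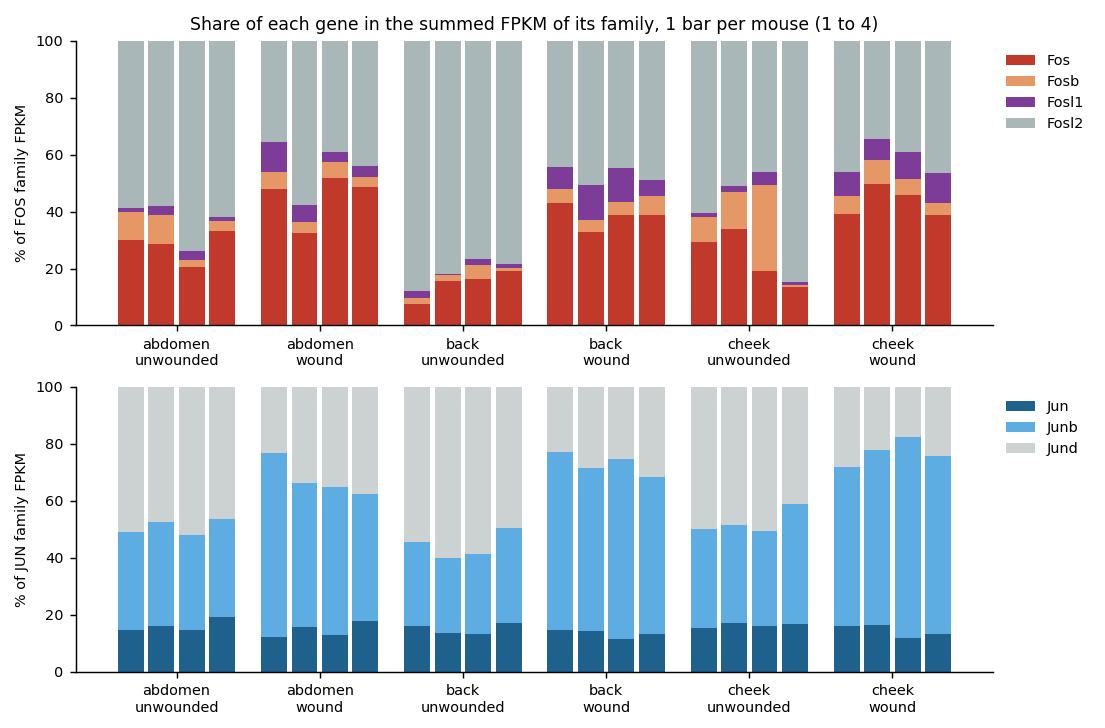
Share (vertical axis, percent) of each gene in the summed FPKM of the FOS family (upper panel) and the JUN family (lower panel), with 1 bar per library and mice 1 to 4 from left to right in each group. Fosl2 is the largest part of the FOS bars in 12 of 12 unwounded libraries, and Junb of the JUN bars in 12 of 12 wounds.

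Whether the wound response differed between the sites was tested by a moderated F test across the 3 wound effects. No gene of the 10 was called, with limma adjusted p values from 0.229 for Ier3 to 0.674 for Jun, and 4 of the 10 at an unadjusted p under 0.05. Over all tested genes 0.0208% were called, and 1867 genes had an unadjusted p under 0.05. The back effect exceeded the abdomen effect for 9 of the 10 genes, by a median of 1.09 on the log2 scale beside 0.09 over all genes. For Ier3 the difference was 1.10 with a 95% interval from 0.54 to 1.66, for Egr1 1.14 from 0.51 to 1.76 and for Fos 1.31 from 0.24 to 2.39. None was called (adjusted p = 0.129, 0.145 and 0.248), nor was any of the 14423 tested genes (0.0%), of which 2191 had an unadjusted p under 0.05 as did 6 of the 10. Without abdomen mouse 1, Fosl1 (1.65, adjusted p = 0.0392) and Fosl2 (0.59, adjusted p = 0.0424) were called in this comparison. Between cheek and abdomen and between cheek and back 0 of the 10 were called, with 1 and 3 at an unadjusted p under 0.05, beside 1715 and 1019 of the 14423 genes, where 0.00693% and 0.0277% of all genes were called.

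Unwounded skin was then compared between sites, and wounds between sites, each in its own 12 libraries of different mice. In unwounded skin, Fos and Egr1 were lower in back than in abdomen, and Egr1 lower in back than in cheek. Fos in unwounded back, at 2.92 ± 1.17 FPKM (SD, n = 4), was below 10.1 ± 2.95 in abdomen and 9.01 ± 3.59 in cheek. Egr1 in unwounded back, at 12.3 ± 1.29 FPKM, was below 28.1 ± 7.78 in abdomen and 29.3 ± 9.37 in cheek. None of the unwounded back samples reached the lowest abdomen sample in either gene, a separation that 10.7% of all genes tested showed with back lower. Fos in back was at 31.7% of abdomen on the modelled scale (log2 change -1.66 ± 0.35, limma adjusted p = 0.0300) and Egr1 at 46.0% (-1.12 ± 0.23, adjusted p = 0.0246). Among all 13956 genes tested in unwounded skin, 2.14% were called lower in back. Egr1 was 2.25-fold higher in cheek than in back (1.17 ± 0.23, adjusted p = 0.0324), where 0.559% of genes were called higher, and Fos was 2.75-fold higher by estimate (1.46 ± 0.35, adjusted p = 0.0773).

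All 10 genes had a negative estimate in back against abdomen, with a median of -0.52, beside a median of -0.12 over all genes tested. In cheek against back, 9 were positive with a median of 0.59, beside 0.14 over all genes. The other genes did not pass the test in back against abdomen, with 5 of the 10, and 3072 of the 13956 genes tested, at an unadjusted p under 0.05. The estimate was -0.45 ± 0.14 for Junb (adjusted p = 0.102), -0.47 ± 0.16 for Fosl2 (0.133) and -0.30 ± 0.11 for Jun (0.142). Junb and Fosl2 also had no overlap between unwounded back and abdomen, which was so, with back lower, for 4 of the 10 genes and for 10.7% of all genes tested. In cheek against abdomen 0 of the 10 were called, beside 2.57% of all genes, 0 had an unadjusted p under 0.05, beside 2650 of 13956 genes, and the 95% intervals ran from -0.96 to 0.56 for Fos and from -0.45 to 0.54 for Egr1.

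These calls were near the threshold, and at an adjusted p of 0.001 none of the 10 genes was called, beside 0.0645% of all genes in back against abdomen and 0.193% in cheek against back. Median-ratio scaling, which brings the median of all genes close to 0 between back and abdomen, gave -1.54 (adjusted p = 0.0579) for Fos and -0.99 (0.0532) for Egr1, and 1.03 (0.0559) for Egr1 in cheek against back. Both back against abdomen calls were lost without abdomen mouse 1 (Fos 0.0556, Egr1 0.0529) or mouse 2 (0.107 and 0.0633), the latter being the unwounded library lowest in muscle transcripts, and without back mouse 1, 2 or 3. Fos alone was also lost without abdomen mouse 4 (0.0503), and with the mouse number as a block (0.0714). The Egr1 call between cheek and back was lost without any single back mouse, without cheek mouse 2, 3 or 4, after quantile normalization (0.0550) and with the mouse number as a block (0.0638). Without cheek mouse 4, Fos was called in that comparison (1.74, adjusted p = 0.0314).

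**Figure D4:**
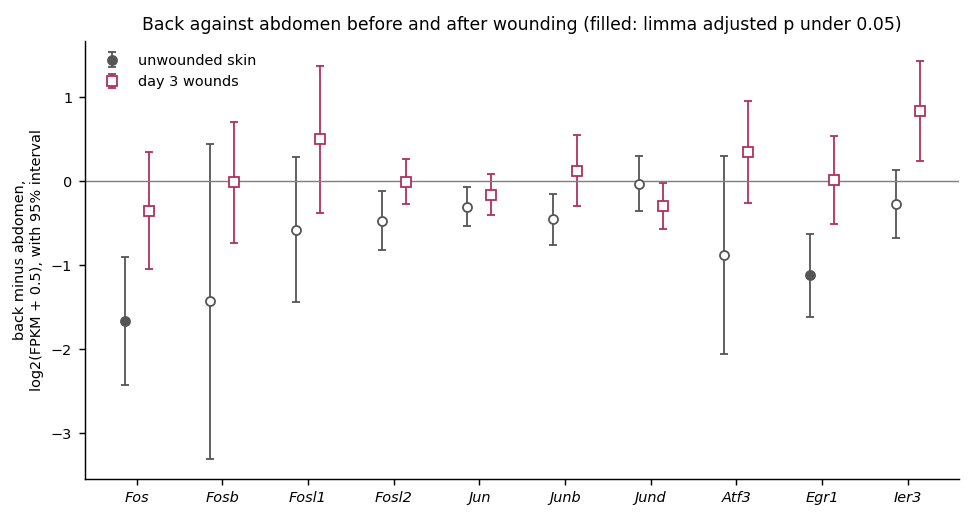
Back minus abdomen difference of log2(FPKM + 0.5) (vertical axis) for each of the 10 genes in unwounded skin (circles) and in day 3 wounds (squares), with 95% limma intervals and filled symbols for an adjusted p under 0.05. All 10 unwounded estimates lie below 0, while 5 of the 10 wound estimates do.

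In wounds Fos stood at 19.9 ± 4.70 FPKM in back, 26.4 ± 9.92 in abdomen and 30.9 ± 11.03 in cheek, and Egr1 at 32.8 ± 4.91, 33.3 ± 9.84 and 45.5 ± 13.6. Back against abdomen, the wound difference was -0.35 for Fos, with a 95% interval from -1.04 to 0.35, and 0.02 for Egr1, from -0.51 to 0.54. No gene of the 10 was called between back and abdomen wounds, where 1.27% of all 14023 tested genes were called, or between cheek and back wounds, with 2.5% of genes called. Unadjusted p values under 0.05 were seen for 2 and 1 of the 10, and for 2310 and 3659 of the 14023 genes. The larger estimates of the wound effect in back and the low unwounded levels there rest on the same 4 unwounded back libraries. They are not independent of each other. Jund was lower in cheek than in abdomen wounds, with 57.2 to 72.6 FPKM against 82.5 to 122 FPKM and no overlap. The difference of -0.59 ± 0.13 (limma adjusted p = 0.0190) was called under every scaling, filter and block that was tried and without any single mouse, with adjusted p values from 0.0131 to 0.0498. In that comparison 3.32% of genes were called lower, and none of the other 9 genes was called. At an adjusted p of 0.001, 0 of the 10 and 0.193% of all genes were called, and 5.4% of genes had no overlap with cheek lower. Without abdomen mouse 1, Fosl1 was called higher in cheek (1.29, adjusted p = 0.0191).

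Ordered by mean FPKM over the 6 groups, unwounded back was the lowest group for Fos, Fosb, Fosl1, Fosl2, Jun, Junb, Atf3, Egr1 and Ier3, and cheek wounds the lowest for Jund. Cheek wounds were the highest group for Fos, Fosl1, Fosl2, Junb and Egr1, and unwounded cheek the highest for Fosb. For Ier3 the order ran from unwounded back (27.5 FPKM), cheek (29.4) and abdomen (33.4) to wounded abdomen (102), cheek (140) and back (173). The 3 unwounded groups of Ier3 did not pass the test in any pair (limma adjusted p from 0.416 to 0.745), nor did the 3 wounded groups (0.152 to 0.441), although back wounds lay above abdomen wounds without overlap, as did 3.84% of genes.

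Because Fos is induced by the same signals as several of the other genes, its level was related to theirs over the 12 mice, separately in unwounded skin and in wounds. Of these 18 relations, 6 had a permutation p, adjusted over the 18, under 0.05 for Pearson's r on the log2 scale. In wounds, Fos went with Egr1 (r = 0.910, permutation p = 1e-05, the smallest that the permutations can give, adjusted 0.00018, Spearman's rho = 0.923, permutation p = 7e-05). The coefficient was 0.838 without the 2 wounds farthest from the median in Fos and 0.958 after removing site means. Fos and Fosb in wounds had r = 0.847 (permutation p = 0.00048, adjusted 0.00432) and rho = 0.823 (permutation p = 0.0015), with 0.732 without the 2 farthest wounds and 0.860 after removing site means. Fos and Junb in wounds had r = 0.696 (permutation p = 0.0121, adjusted 0.0364) and rho = 0.692 (permutation p = 0.0148, adjusted 0.0534), with 0.636 and 0.826 by the same steps. The adjusted p of Fos and Junb was over 0.05 after median-ratio scaling (0.0521) and without abdomen mouse 1 (0.111), 2 (0.0887) or 3 (0.055), back mouse 1 (0.0666) or cheek mouse 1 (0.0608) or 3 (0.121).

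In unwounded skin, Fos went with Fosb (r = 0.758, permutation p = 0.00441, adjusted 0.0198, rho = 0.783, permutation p = 0.00386) and with Atf3 (r = 0.757, permutation p = 0.00413, adjusted 0.0198, rho = 0.781, permutation p = 0.00421). After removing site means these were 0.663 and 0.683, and without the 2 farthest libraries 0.759 and 0.746. Fos and Egr1 had r = 0.727 in unwounded skin (permutation p = 0.00855, adjusted 0.0308) and rho = 0.657 (permutation p = 0.0242, adjusted 0.0727). The coefficient was 0.0324 after removing site means. It was 0.893 (adjusted permutation p = 0.00261) without cheek mouse 4, the library with hair follicle transcripts, which was the lowest of unwounded cheek in Fos and the highest in Egr1. The adjusted p was over 0.05 without abdomen mouse 1 (0.0624), 3 (0.0514) or 4 (0.0569), back mouse 1 (0.0985), 2 (0.0524) or 3 (0.0504) or cheek mouse 3 (0.0665). With all mice, a second draw of the permutations gave an adjusted p of 0.0333 in place of 0.0308, so values this close to 0.05 cannot be set on either side of it. Fos and Atf3 did not pass in wounds (r = 0.412, adjusted permutation p = 0.255), nor did Fos and Junb in unwounded skin (r = 0.477, adjusted 0.194). Fosl1, Fosl2, Jun, Jund and Ier3 did not pass with Fos in either state. After removing site means, their r in wounds was 0.467, 0.531, 0.416, -0.23 and 0.755 in that order. For Ier3 it was 0.31 before that step. In unwounded skin the values without site means were 0.271, -0.12, -0.277, -0.229 and -0.0576. Values without site means were not tested. For Jund, r was -0.161 in unwounded skin and -0.274 in wounds (permutation p = 0.615 and 0.391). Each site alone holds 4 mice per state, too few for a relation of its own, and all points share the library as their unit.

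**Figure D5:**
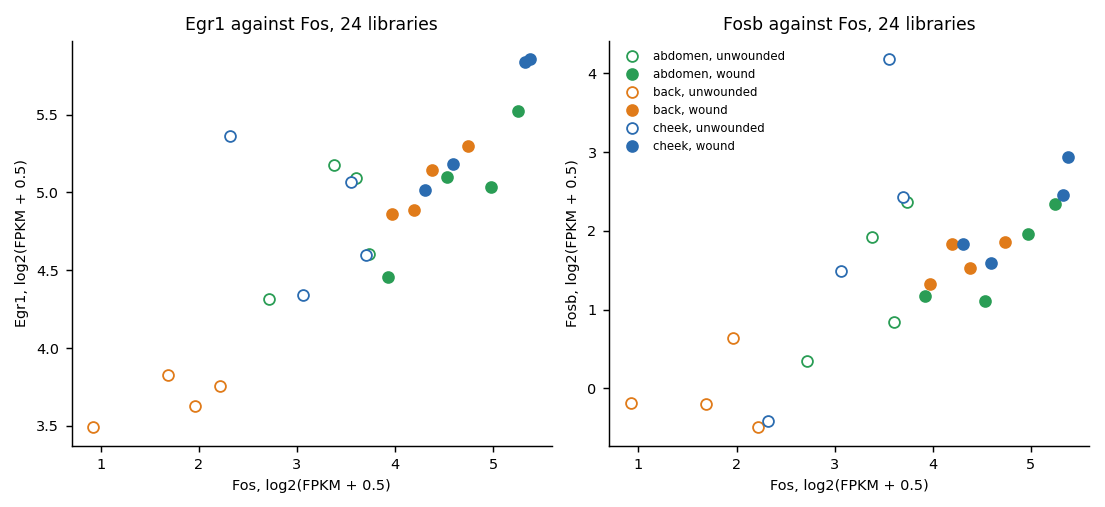
Egr1 (left) and Fosb (right) against Fos, all as log2(FPKM + 0.5), in the 24 libraries, coloured by site with open circles for unwounded skin and filled circles for wounds. The 12 wounds lie along a line in both panels (r = 0.910 and 0.847), and the 4 unwounded back libraries sit lowest in Fos and Egr1.

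The genes whose pattern over all 24 libraries was most like that of each of the 10, by Pearson's r on the log2 scale among 14423 genes, are given as a description in which the difference between wounds and unwounded skin is shared by all points. Fos was most like Dusp1 (r = 0.911), a phosphatase that switches off MAP kinases, and Myo1e (0.899). Junb was most like Csrnp1 (0.976), an immediate early nuclear factor, and Krt6a (0.975), a keratin of wound-edge epidermis. Ier3 was most like Ppp1r15a (0.978), the stress-induced phosphatase subunit GADD34, and Hdc (0.975). Fosl1 was most like Il17ra (0.951) and Rptn (0.946), Atf3 like Zdhhc7 (0.895) and Tnfaip3 (0.887), and Fosb like Bcar1 (0.871) and Tnfaip3 (0.788). Within the 10, Fosb and Atf3 had r = 0.806, above the value of Fosb with Tnfaip3. Jun was most like Rhob (0.919) and Tnni1 (0.909), Fosl2 like Mms22l (0.944) and Zw10 (0.935), Egr1 like Csnk1d (0.856) and Kdm5c (0.855), and Jund like Tmem134 (0.886) and the ribosomal protein gene Rpl22 (0.879).

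Other genes of the pathway were counted in lists, on the mean wound effect of the 3 sites, for which 33.3% of all tested genes were called higher and 29.4% lower. Genes known as targets of AP-1, among them matrix proteases, their inhibitors and inflammatory mediators, rose in 17 of 17 cases, with a median of 1.71 beside 0.02 over all tested genes. Among them were the collagenase Mmp13 (4.31 ± 0.15) and the protease inhibitor Timp1 (3.39 ± 0.14). In each site 15 to 17 of the 17 rose. Of 32 other immediate early genes, 31 passed the filter on low values, of which 22 rose and 4 fell with a median of 0.50. Csrnp1 rose by 1.79 ± 0.09, Gadd45b, a DNA damage and stress gene, by 1.62 ± 0.12 and the nuclear receptor Nr4a3 by 1.49 ± 0.12. The 4 that fell were Egr3, Gem, Klf4 and Sik1, named after their values were seen.

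Partners of AP-1 in the bZIP class rose in 8 and fell in 4 of 14 cases, with a median of 0.22. Among them were Batf (1.2 ± 0.10) and Batf3 (0.78 ± 0.21), both of which pair with JUN proteins in immune cells. Negative regulators of the pathway, such as dual specificity phosphatases, rose in 7 and fell in 5 of 18 cases, led by the mRNA decay factor Zfp36 (1.11 ± 0.08), Dusp2 (1.07 ± 0.24) and Dusp5 (0.99 ± 0.08). Genes of the input to immediate early promoters, the serum response factor, ETS and MAP kinase genes, rose in 8 and fell in 8 of 23 cases, with a median of 0.02. The muscle-enriched kinase gene Mapk12 fell by 1.03 on the log2 scale, Elk3 rose by 0.89 ± 0.05 and Map2k1 by 0.52 ± 0.05. Of 11 heat shock and chaperone genes 5 rose, Hspa8 by 0.54 ± 0.06 and Hsp90aa1 by 0.47 ± 0.09, and Hspb1 fell by 0.43, with a median of 0.13. Every change given with its value in these lists had a limma adjusted p of at most 0.00662.

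In unwounded back against abdomen, 27 of the 31 tested immediate early genes of the list were negative, with 2 of them called, and the median was -0.26, beside -0.12 and 2.14% called lower over all genes. These were Rgs2, a regulator of G protein signalling (-0.87 ± 0.11, limma adjusted p = 0.00148), and Btg2, an antiproliferative gene (-0.46 ± 0.09, adjusted p = 0.0198). Of the 18 negative regulators 14 were negative, with a median of -0.20 and Dusp16, a MAP kinase phosphatase, called (-0.82 ± 0.15, adjusted p = 0.0124). The median of the 11 heat shock genes was -0.33, with Dnaja1 called (-0.55 ± 0.12, adjusted p = 0.0300), and that of the 17 AP-1 target genes, of which 14 could be tested, was -0.13 with 0 called and 8 negative.

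Markers of several cell types also differed between wounds and unwounded skin, some higher and some lower. Neutrophil genes rose in 6 of 6 cases at each site, with sums from 8.45 to 37.8 FPKM in unwounded skin and from 346 to 2390 FPKM in wounds. Macrophage genes rose in 4 of 6 cases in abdomen and 6 of 6 in back and cheek, from 260 to 526 FPKM to 513 to 846 FPKM. Wound-edge keratinocyte genes rose in 5 of 5 cases, from 394 to 1315 FPKM to 2386 to 17160 FPKM. Adipocyte genes were called lower in 5 of 5 cases in abdomen and back and 4 of 5 in cheek, from 426 to 1740 FPKM to 264 to 750 FPKM, and skeletal muscle genes in 4 of 6 cases in back, 0 of 6 in abdomen and cheek and 6 of 6 on the mean of the sites. In cheek the 6 muscle genes summed to 9924 to 20090 FPKM in unwounded skin and 4311 to 6056 FPKM in wounds, without overlap, with a median change of -1.56. Endothelial genes rose in 4 of 5 cases at each site. Fibroblast genes fell in 4 of 6 cases in abdomen and in 2 of 6 in back and cheek, and rose in 1 of 6 in back and in cheek. Of the T cell genes 4 of 5 were in the table, 1, 2 and 2 fell in abdomen, back and cheek, and 1 rose in back. Of 5 red blood cell genes 0 were called at any site, and basal keratinocyte genes rose in 1, 2 and 3 and fell in 2, 2 and 1 of 5 cases in abdomen, back and cheek. No gene of these lists was at 0 in all 4 libraries of a group. Their part in the rise of the 10 genes was not tested, and site comparisons of unwounded skin share the muscle values given above.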

How the data were processed

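The authors deposited FPKM values per gene and library, calculated for them by a sequencing provider and rounded to 2 decimals. Per their methods, paired-end reads of 100 bases from a BGISEQ-500 instrument were filtered and mapped to GRCm38 (mm10) with HISAT2. Clean reads were mapped with Bowtie2 2.2.5 and quantified with RSEM 1.2.12. Their methods name no scaling of these values between libraries beyond that of FPKM, and none was added in the main tests. The strand setting is not given in the sources used here, so reads of overlapping antisense genes cannot be told apart. A deposited table of the authors' log2 fold changes and adjusted p-values (18 columns, DESeq2) was not used, and 0 per-sample columns were left out. Since FPKM values hold no fragment counts, no counting interval was given. Relative depth was judged from steps in 1421 genes with low values, roughly, as RSEM splits reads between transcripts.

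The log2 of FPKM plus 0.5 was modelled in limma 3.58.1 (R 4.3.3, statmod 1.5.0) with trend and robust moderation, keeping genes that reached 0.5 FPKM in 4 or more of the fitted libraries. All 10 genes passed. Wound effects came from 24 libraries with a term for each of 12 mice. Sites were compared within the 12 libraries of a state. Adjusted p values follow Benjamini and Hochberg, over all tested genes. The models were tested on simulated data. Wound and unwounded libraries of a mouse belong together by the labels, and their deviations from group means had mean correlations of 0.322, 0.348 and 0.281 for abdomen, back and cheek, the lowest pair being an abdomen mouse at -0.0299, against -0.108, -0.116 and -0.0958 between different mice. Nothing says that the 4 mice of a site came from separate litters or cages. The p-values of wound effects therefore measure the spread of wound minus unwounded differences among these mice only. Those of site comparisons measure the spread between these mice.

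Permutation tests of correlations were two-sided with 100000 permutations. Positions came from RefSeq GRCm38.p6, exon counts from GENCODE M21 transcripts matched to RefSeq, and promoter letters from RefSeq (GRCm38.p6). The 10 genes, the gene lists, the motifs and the tests were chosen with earlier results of these data known. The text names all 10 genes, the 3 called genes with the largest mean wound effect in each other list, and the 2 genes outside the 10 most like each of them over the 24 libraries. Some genes that this rule names are not reported here. Alternatives were other pseudocounts (0.1 and 1), filters, scalings, moderation, thresholds and model terms, and each mouse left out.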

Additional observations from a re-analysis of the deposited data

Results flagged for a closer look

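Of the 60 groups of 4 samples formed by the 10 genes, 1 held a sample far from the others on the FPKM scale. Fosl1 in the abdomen wound of mouse 1 stood at 8.22 FPKM, with 1.77 to 2.74 FPKM in the other abdomen wounds, and its gap to the next sample was 0.850 of the range of the group, above the 95% critical value of Dixon's test for 4 samples. On the log2(FPKM + 0.5) scale, on which the tests were run, that fraction was 0.736, below the critical value. About 1 group in 20 is marked in this way by chance on a single scale, and here either scale could mark a group. Without that mouse Fosl1 was still called higher in abdomen wounds, by 1.02 on the log2 scale (limma adjusted p = 0.0261).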

How the results depend on the processing

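Of the 45 results for single genes, 41 kept their direction under every alternative. The others reversed without 1 mouse: Fosb in abdomen without abdomen mouse 3 (-0.17, up to 0.77 without mouse 2), Fosl2 in abdomen without abdomen mouse 1 (-0.0022, up to 0.19 without mouse 4), Jund in abdomen without abdomen mouse 4 (-0.032, up to 0.28 without mouse 1) and Fosb in cheek without cheek mouse 4 (-0.29, up to 0.95 without mouse 3), with the reversed values not called. At an adjusted p of 0.001 the counts of called genes were 2 in abdomen and 3 in cheek wounds, and 0 for unwounded back against abdomen, unwounded cheek against back and cheek against abdomen wounds. With each site fitted on its own 8 libraries the count was 4 in abdomen, against 6, and 4 in cheek, against 8. Median-ratio scaling gave 0 for both unwounded comparisons of back, and quantile normalization 0 for cheek against back and 4 in the list of serum response factor, ETS and MAP kinase genes, against 8. Leaving out each mouse gave 4 to 6 called genes in abdomen wounds, 5 to 8 in cheek wounds and 0 to 2 for the difference of wound effects between back and abdomen. It gave 0 to 2 for unwounded back against abdomen, 0 to 1 for unwounded cheek against back and 1 to 2 for cheek against abdomen wounds. The cause of these changes was not tested.

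Wound effects without the mouse as a block gave 5, 9 and 6 called genes for abdomen, back and cheek. Mouse numbers do not pair mice of different sites (mean correlation -0.039), and a replicate block by number gave 1 called gene between unwounded back and abdomen and 0 between cheek and back. A fit of all 6 groups with an estimated correlation within mice gave 2 for cheek against back. List counts and Fos correlations under other settings were added after seeing the data. Depth is unknown, so counting error of low values such as those of Fosl1 could not be given.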
